A study of Saccharomyces cerevisiae with 28 samples.

Results

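At 30% sucrose, HS baker's yeast carried less mRNA of many genes that are transcribed as a cell leaves G1 than it did at 5, 10 and 20%. It carried more mRNA of a small group of genes led by STL1 and GRE2. Of 22 listed G1 genes 21 lay lower and 10 passed the test, a count that depended on the settings. It was 0 without the second array at 30%, and against 20% alone 0 probe sets of any kind passed. The 2 arrays of HS yeast at 30% sucrose were compared with the 6 arrays of the same yeast at 5, 10 and 20% (2 arrays at each concentration), 8 of the 28 arrays in the series. The arrays were assigned by their labels. The comparison itself and the gene lists were picked with earlier results of these data known.

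The study put 2 baker's yeasts (Saccharomyces cerevisiae), called LS and HS in the labels, through 60 min of fermentation in a medium called LF, with sucrose at 0, 5, 10, 20, 30, 40 or 50% and 2 arrays for each yeast and concentration. The labels explain none of the names LS, HS and LF, and give no strain, genotype or ploidy. All groups shared the yeast species, the medium apart from its sucrose, the fermentation time and the RNA preparation, in which poly(A) RNA was purified from total RNA for hybridisation to arrays that also hold probe sets for the fission yeast Schizosaccharomyces pombe. Nothing in the labels says whether the 2 arrays of a group came from separate cultures, so every p-value here is set against a spread between arrays that may be only technical.

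Sucrose outside the cell draws water out of it, and yeast answers through the HOG (high osmolarity glycerol) pathway, in which the kinase Hog1 raises the transcription of glycerol-making enzymes, of the glycerol importer Stl1 and of other protective proteins. The same kinase is known to hold cells back at the G1/S boundary. There the transcription factors SBF and MBF switch on a large set of genes, among them the G1 cyclins and the DNA replication machinery, once per cell cycle.

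Each value was a ratio to the level of the same probe set over the arrays, so values compare arrays within a probe set and do not rank genes by abundance. The difference between the mean log2 ratio at 30% and the mean at 5 to 20% was tested with limma over 5498 S. cerevisiae probe sets for 5449 genes, and called at an adjusted p under 0.05. Of these, 53 were called (0.964%), 10 of them higher at 30% (0.182%) and 43 lower (0.782%). The main fit held no term for the replicate number, and with that number as a block 102 were called, 23 higher and 79 lower. Under quantile normalization 157 were called, 67 higher and 90 lower, so the share of higher calls depended on the scaling. The median difference over all probe sets was -0.05 on the log2 scale.

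The 2 arrays at 30% differed in size of change. In 33 of the 43 falls and in 9 of the 10 rises the second lay further from the mean of the 6 arrays than the first did. The median difference of the falls was -2.18 on the first array and -2.60 on the second, and that of the rises was 1.88 and 2.51. Without the second array limma called 0 probe sets (330 at an unadjusted p under 0.05) and without the first 23, of which 22 were among the 53. Without any single array at 5 to 20% it called 25 to 39, and 1 (SVS1) when the spread was taken from all 28 arrays. On all 53 called probe sets both 30% arrays lay outside the range of the 6 others, which holds for 433 probe sets upwards (7.88%) and 619 downwards (11.3%) over the whole table. Replicate arrays correlated at r = 0.557 at 30% and at 0.631 to 0.688 at 5 to 20%.

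**Figure D1:**
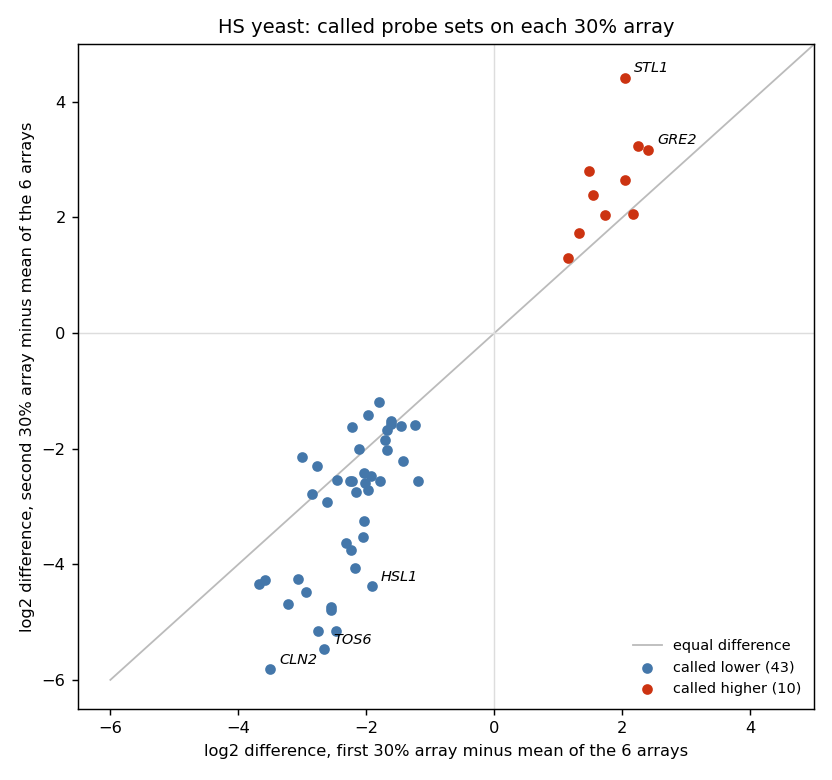
For each of the 53 called probe sets, the log2 difference of the first 30% array (horizontal axis) and of the second (vertical axis) from the mean log2 ratio of the 6 arrays at 5 to 20%. Every point lies on the same side of 0 on both arrays, and 33 of 43 falls and 9 of 10 rises lie further from 0 on the second array.

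The S. pombe probe sets, which are not designed for S. cerevisiae RNA, had median ratios of 0.427 and 0.169 on the 30% arrays. At 5 to 20% their medians ranged from 0.234 to 0.461, so the second 30% array lay lowest of the 8. Over 1746 such probe sets the median log2 difference between 30% and 5 to 20% was -0.24. Its part in the results was not tested. The haploid and mating genes and the meiosis and sporulation genes, which mark other cell states, had 0 called of 24 and 0 called of 26 measured members. Of all probe sets 0.964% were called, so 0 calls in lists of this size says little about cell state. Their medians were -0.39 and -0.14. Both 30% arrays lay below all 6 others in 5 of the 24 and in 1 of the 26, against 11.3% of all probe sets. They lay above all 6 in 1 and in 2, against 7.88%.

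The largest fall among the called genes was of a G1 cyclin. CLN2, which with CLN1 drives the kinase that starts the cycle, had ratios of 19.7 and 12.4 at 5% sucrose, 18.1 and 8.93 at 10%, and 13.0 and 7.81 at 20%. At 30% its ratios were 1.11 and 0.224, both far under the lowest of the 6 arrays. The fall was 4.66 ± 0.92 (SE) on the log2 scale, or 25.2-fold (n = 2 and 6, adjusted p = 0.041). CLN1 had ratios of 3.95 to 9.27 (median 5.54) at 5 to 20% and of 0.945 and 0.199 at 30%, and fell by 3.67 ± 0.52 (12.8-fold, adjusted p = 0.011). CLN2 passed the test in 9 of 24 alternative settings and CLN1 in 20. The cyclins are similar in sequence, and cross-hybridisation between the probe sets was not tested.

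For both cyclins the first 30% array stood between the second and the lower concentrations. CLB6, a B-type cyclin that starts DNA replication, had ratios of 13.5 to 26.6 at 5 to 20% and of 3.66 and 0.997 at 30%. It fell by 3.12 ± 0.47 (adjusted p = 0.011). PCL1, a G1 cyclin of the kinase Pho85, had ratios of 4.80 to 9.55 at 5 to 20% and of 0.972 and 0.342 at 30%. Its groups did not overlap, but its difference of -3.43 ± 0.82 was not called (adjusted p = 0.097).

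Regulators of G1 transcription fell as well. YOX1 and YHP1 encode homeodomain repressors of early cell cycle genes. YOX1 had ratios of 4.58 to 11.5 at 5 to 20% and of 0.967 and 0.182 at 30%, a 15.5-fold fall (3.96 ± 0.56 on the log2 scale, adjusted p = 0.011). YHP1 had ratios of 3.06 to 5.93 against 0.683 and 0.556, and here the 30% arrays lay close together. NRM1, the co-repressor that closes the window of MBF transcription, had 1.52 to 9.34 against 0.647 and 0.260 and fell by 2.97 ± 0.57 (adjusted p = 0.038). TOS4, a target of SBF with a forkhead-associated domain, had ratios of 2.14 to 6.02 (median 2.68) at 5 to 20% and of 0.254 and 0.160 at 30%. Its fall of 16.1-fold (4.01 ± 0.52 on the log2 scale, adjusted p = 0.011) rested on 30% arrays that lay close together. SWI4, the DNA-binding subunit of SBF, had a difference of -1.97 and was not called (adjusted p = 0.078).

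Of 22 measured genes in a list of G1 cyclins and G1/S transcription, 10 fell and 0 rose, against 0.782% and 0.182% of all probe sets. The list was chosen with earlier results of these data known, so this count describes the change and is no independent test of it. The called members were CLN2, TOS6, TOS4, YOX1, CSI2, SVS1, CLN1, CLB6, NRM1 and YHP1. The list's median difference was -2.37, with -2.14 on the first 30% array and -2.78 on the second, each set against the 5 to 20% arrays of the same replicate number. On either replicate 21 of the 22 genes lay below 0. In the fit the exception was PCL9, another Pho85 cyclin, which is known to be transcribed at the exit from mitosis, with a difference of 0.79. The count of called members was 1 when the spread came from all 28 arrays and 0 without the second 30% array. In RNA from a whole culture, fewer cells at the G1/S boundary and less of these mRNAs per cell cannot be told apart.

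**Figure D2:**
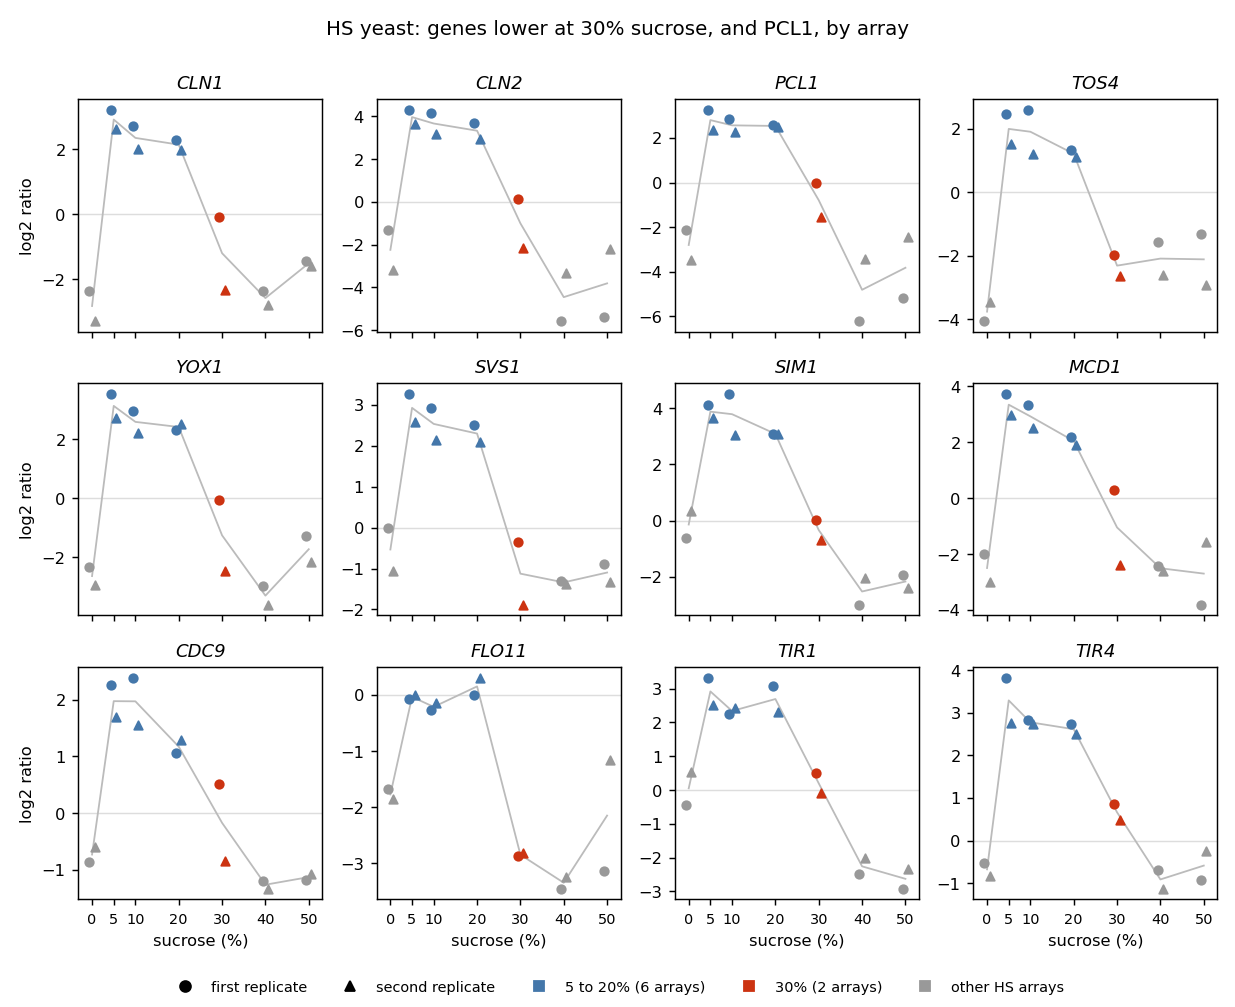
The log2 ratio (vertical axis, each panel on its own scale) of 11 genes that fell and of PCL1, which was not called, against sucrose concentration in percent (horizontal axis) on the 14 HS arrays. Circles are first and triangles second replicates, blue marks 5 to 20%, red 30% and grey the other concentrations, and the line joins group means. In all panels both red points lie below all 6 blue points.

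Among the genes that fell were SIM1, SVS1, TOS6, SRL1, CSI2, AXL2 and BUD9, which encode cell wall and membrane proteins and were brought together after their values were seen. SIM1, a protein of the SUN family linked to the wall and to septation, had ratios of 8.36 to 22.8 (median 10.5) at 5 to 20%. At 30% its ratios were 1.004 and 0.623, a 15.2-fold fall (3.92 ± 0.44 on the log2 scale, adjusted p = 0.011). SVS1, a wall protein named for vanadate sensitivity, fell 13.1-fold, from ratios of 4.23 to 9.63 to 0.778 and 0.270. TOS6, a mannoprotein-like target of SBF, fell 16.7-fold, from 4.76 to 9.16 to 0.992 and 0.141, and SRL1, a wall mannoprotein, fell 12.7-fold, from 5.44 to 14.5 to 1.04 and 0.459. CSI2, a membrane protein linked to chitin deposition, had ratios of 11.04 to 20.3 at 5 to 20% and of 1.57 and 0.567 at 30%, and fell by 3.95 ± 0.75. In all of these the first 30% array was the higher of the pair. AXL2 and BUD9, transmembrane landmarks for the site of budding, fell by 2.49 and 2.31.

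MCD1, SHE1, HSL1, RTT109, RAD53, SPT21 and TUB4, likewise brought together after the calls, act in the duplication or segregation of chromosomes or in its control. The list of mitotic cyclins and M phase genes had 0 called of 21, against 0.964% of all probe sets, and a median of -0.10. In 1 of the 21 both 30% arrays lay below all 6 others, against 11.3% of all probe sets. MCD1, the cohesin subunit that is cut at anaphase, had ratios of 3.71 to 13.2 (median 6.71) at 5 to 20% and of 1.22 and 0.190 at 30%, and fell by 3.82 ± 0.70 (14.1-fold, adjusted p = 0.035). SHE1, a spindle protein, fell 12.5-fold, from 0.947 to 2.88 to 0.296 and 0.0652, and at 40% it stood at 0.561 and 1.05. HSL1, a septin-bound kinase of the morphogenesis checkpoint, fell 8.88-fold, from 1.91 to 6.30 to 0.917 and 0.166. RTT109, a histone acetyltransferase of newly made H3, fell by 3.0 ± 0.44, RAD53, the checkpoint kinase, by 2.20, SPT21, needed for histone gene transcription, by 2.17, and TUB4, gamma-tubulin, by 1.78.

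Of 32 measured DNA replication genes, 3 fell and 0 rose, against 0.782% and 0.182% of all probe sets. CDC9, the DNA ligase, had ratios of 2.07 to 5.22 at 5 to 20% and of 1.42 and 0.554 at 30% (fall of 1.88 ± 0.38, adjusted p = 0.046). POL2, the catalytic subunit of DNA polymerase epsilon, had 2.44 to 3.83 against 0.905 and 0.713 (1.85 ± 0.36). CTF18, part of a clamp loader that acts in cohesion, had 1.99 to 3.31 against 0.988 and 0.571 (1.82 ± 0.30). CTF4, which couples helicase and polymerase and was outside the list, fell by 1.42 ± 0.26. The list's median was -0.54, and in 17 of its 32 genes both 30% arrays lay below all 6 others, against 11.3% of all probe sets. RNR1, the large subunit of ribonucleotide reductase, had ratios of 5.00 to 8.62 at 5 to 20% and of 2.59 and 1.67 at 30%, a difference of -1.53 ± 0.47 that was not called (adjusted p = 0.20). Of 9 histone genes 0 were called, against 0.964% of all probe sets, so 0 calls in a list of this size says little. Their median was -0.64, and in 7 the groups did not overlap, all lower.

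Of 25 measured cell wall mannoproteins, FLO11, TIR1 and TIR4 fell and 0 rose, against 0.782% and 0.182% of all probe sets, and the list's median was -0.32. FLO11, the flocculin that lets yeast adhere and form filaments, had ratios of 0.826 to 1.23 (median 0.974) at 5 to 20%. At 30% its ratios were 0.136 and 0.142, a 7.03-fold fall (2.81 ± 0.42 on the log2 scale, adjusted p = 0.011). TIR1 and TIR4, mannoproteins of cold and anaerobic growth, fell 5.46-fold and 4.70-fold, TIR1 from 4.76 to 9.96 to 1.40 and 0.936 and TIR4 from 5.63 to 14.1 to 1.81 and 1.39. In each of these 3 the 30% arrays lay close together. Of 25 genes of glucan and chitin remodelling 1 (SIM1) fell, against 0.782% of all probe sets, with a median of -0.40 and 24 below 0. OCH1, the Golgi mannosyltransferase that starts the outer mannan chain, fell by 2.06 ± 0.27 (adjusted p = 0.011) from ratios of 1.35 to 2.82 to 0.504 and 0.542.

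Other falls came from several pathways. MET13, a methylenetetrahydrofolate reductase that supplies methionine synthesis, had ratios of 1.66 to 2.77 at 5 to 20% and of 0.688 and 0.696 at 30% and fell by 1.68 ± 0.28 (adjusted p = 0.020). It was the only called member of 24 measured genes of sulfate assimilation and methionine synthesis, against 0.782% of all probe sets called lower. The list's median was -0.57, and in 13 of the 24 both 30% arrays lay below all 6 others, against 11.3% of all probe sets. TIS11, which directs mRNA decay under iron shortage, had ratios of 2.20 to 4.17 at 5 and 10%, of 0.903 and 0.936 at 20% and of 0.507 and 0.749 at 30%, so the 20% arrays already lay below those at 5 and 10%. GAL10, the epimerase of galactose use, had 0.579 to 0.922 against 0.194 and 0.297 and fell by 1.5 ± 0.28 (adjusted p = 0.035). The vacuolar transporter gene ERS1, the biotin precursor transporter gene BIO5 and the sirtuin gene HST2 fell by 2.57, 1.93 and 1.60. Of the 43 falls, 18 were in any of 40 gene lists and 5 bore only a systematic name. The probe set for YAR066W, which fell by 2.41, is of a type that can detect related sequences.

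The 10 rises ranged from 1.22 to 3.23 on the log2 scale, against 1.42 to 4.66 for the size of the falls. STL1, the glycerol importer, had ratios of 0.0239 to 0.0594 (median 0.0374) at 5 to 20% and of 0.153 and 0.795 at 30%. Both 30% arrays lay above all 6, and the second lay further above the first than the first above the highest of the 6. The rise was 3.23 ± 0.59 on the log2 scale, or 9.37-fold (n = 2 and 6, adjusted p = 0.035), and STL1 passed the test in 9 of 24 alternative settings, with adjusted p up to 0.46. GRE2, a methylglyoxal reductase induced by osmotic stress, had ratios of 0.0950 to 0.285 against 0.729 and 1.25. It rose 6.89-fold (2.78 ± 0.41, adjusted p = 0.011) and passed in 20 of 24 settings.

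PHO3, an acid phosphatase repressed by thiamine, had ratios of 0.226 to 0.406 (median 0.335) at 5 to 20% and of 1.54 and 3.08 at 30%, a 6.70-fold rise (2.74 ± 0.48, adjusted p = 0.026). Unlike STL1 it was low again at 50%, at 0.556 and 0.147. PHO5, the neighbouring phosphatase of very similar sequence, had a difference of -0.29 (adjusted p = 0.96). The list of 16 thiamine and pyridoxine genes had 1 called member, PHO3, against 0.182% of all probe sets called higher, and a median of 0.04. In 5 of the 16 both arrays at 30% lay above all those at 5 to 20%, against 7.88% of all probe sets. In 1 of the 16 both lay below all of them, against 11.3%. OPI10, named for the overproduction of inositol, rose 5.06-fold from 0.151 to 0.793 to 1.40 and 2.12. RAD16, of nucleotide excision repair, rose 3.90-fold from 0.306 to 0.823 to 1.48 and 2.65, and RPH1, a histone demethylase and repressor of DNA damage genes, rose 2.88-fold from 0.230 to 0.475 to 0.757 and 1.01.

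For RAD16 and RPH1 both arrays at 20% already lay above all those at 5 and 10%, though neither was called between these concentrations. MNE1, a mitochondrial protein, rose 2.34-fold, from ratios of 0.703 to 1.09 to 1.76 and 1.97. YML131W, YHR022C and YNL234W, which bear only systematic names, rose 4.41-fold, 4.32-fold and 3.68-fold. YHR022C had ratios of 0.680 to 1.31 against 3.99 and 3.69 and was the only rise in which the first 30% array was the higher.

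**Figure D3:**
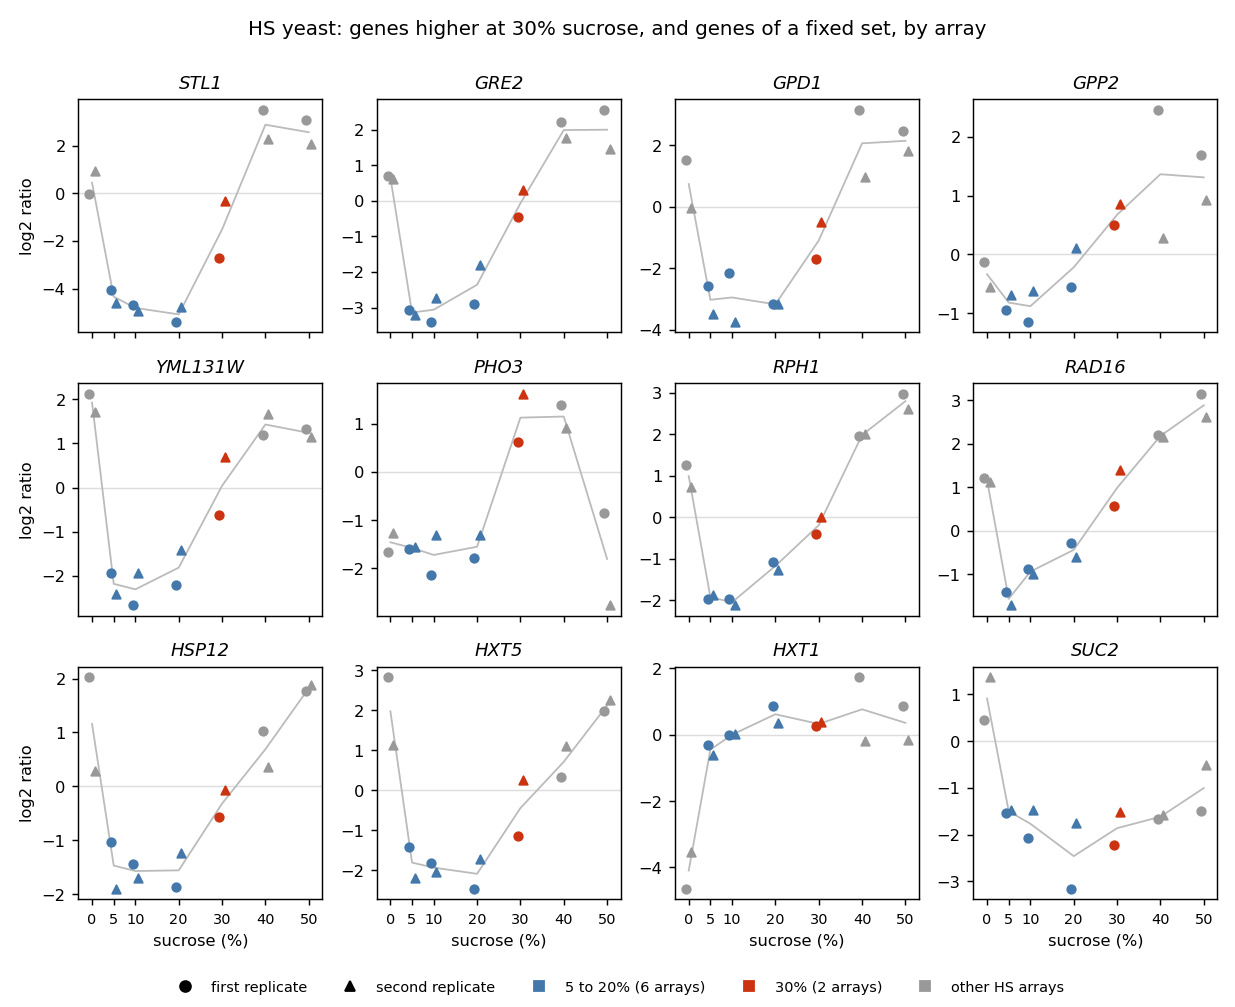
The log2 ratio (vertical axis, each panel on its own scale) of 6 genes that rose (STL1, GRE2, YML131W, PHO3, RPH1 and RAD16) and 6 that were not called (GPD1, GPP2, HSP12, HXT5, HXT1 and SUC2) against sucrose in percent (horizontal axis) on the 14 HS arrays. Circles are first and triangles second replicates, blue marks 5 to 20%, red 30% and grey the other concentrations, and the line joins group means. Both red points lie above all 6 blue points in every panel except HXT1 and SUC2.

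The glycerol-making enzymes did not pass the test. GPD1, the glycerol-3-phosphate dehydrogenase that limits glycerol synthesis, had ratios of 0.0753 to 0.223 (median 0.111) at 5 to 20% and of 0.305 and 0.714 at 30%. The groups did not overlap, and the difference was 1.95 ± 0.65 (adjusted p = 0.26). GPP2, the phosphatase of the following step, had ratios of 0.452 to 1.08 against 1.41 and 1.81 (1.32 ± 0.50, adjusted p = 0.34). Its isoform GPP1 differed by -0.07 ± 0.64, the glycerol channel gene FPS1 by -0.08 ± 0.29 and the kinase gene HOG1 by -0.40 ± 0.31. Of 16 genes of glycerol synthesis and transport 1, STL1, was called, and of 25 components of the HOG pathway 0 were called, with medians of -0.11 and -0.05. Of all probe sets 0.964% were called, so 0 calls in a list of this size says little. Both 30% arrays lay above all 6 others in 4 of the 16 and in 2 of the 25, against 7.88% of all probe sets. They lay below all 6 in 0 and in 3, against 11.3%.

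Of 20 measured osmotic stress targets of the HOG pathway, 2 rose (STL1 and GRE2) and 0 fell, against 0.182% and 0.782% of all probe sets. The median difference was 0.90, with 0.68 on the first and 1.48 on the second replicates. On the first replicates 13 of the 20 lay above 0, and on the second 19. In 10 of the 20 both 30% arrays lay above all 6 others, against 7.88% of all probe sets. DDR48, a stress protein of this list, had a difference of 2.33 ± 0.58 and was not called (adjusted p = 0.11). Of 23 heat shock proteins and chaperones 0 were called, against 0.964% of all probe sets, so 0 calls in a list of this size says little. Their median was 0.64, 21 lay above 0, and in 11 both 30% arrays lay above all 6 others. On the first replicates 17 lay above 0, and on the second 23. HSP12, a small membrane-protecting heat shock protein, had ratios of 0.268 to 0.487 against 0.674 and 0.954 (1.21 ± 0.45, adjusted p = 0.33).

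In the fixed set the general stress and sugar genes CTT1, TPS1, HXT5, HXT1 and SUC2 gave no call either. CTT1, the cytosolic catalase, differed by 0.73 ± 0.60, and TPS1, the trehalose phosphate synthase, by 0.14 ± 0.46. The 10 trehalose genes had a median of -0.20. In 3 of these 10 both 30% arrays lay below all 6 others, against 11.3% of all probe sets. In 1 they lay above all 6, against 7.88%. HXT5, a hexose transporter of slow growth, had ratios of 0.182 to 0.375 against 0.452 and 1.20 (1.5 ± 0.51, adjusted p = 0.27). HXT1, the low-affinity glucose transporter, differed by 0.27 ± 0.50 and SUC2, the invertase that splits sucrose outside the cell, by 0.05 ± 0.44. Both of their 30% arrays lay inside the range of the 6 others.

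The broad growth lists had no called member. Of all probe sets 0.964% were called, so 0 calls in lists of these sizes says little. Ribosome biogenesis had 0 called of 68, a median of 0.33 and 60 genes above 0. Cytosolic ribosomal proteins had 0 called of 128, a median of -0.14 and 121 genes below 0. Their median was -0.27 on the first replicates, with 123 below 0, and -0.03 on the second, with 81 below 0. In 1 of the 128 both 30% arrays lay below all 6 others, against 11.3% of all probe sets. Over all 5498 probe sets 2473 differences lay above 0 and 3025 below. Mitochondrial ribosomal proteins had 0 called of 55, a median of 0.24 and 49 genes above 0. The tricarboxylic acid cycle had 0 called of 16 and a median of -0.59, but this was -0.94 on the first and -0.14 on the second replicates. Ergosterol synthesis had 0 called of 24 with a median of -0.42 and 23 genes below 0, and fatty acid synthesis 0 called of 14 with a median of -0.52. In 8 of the ergosterol genes and in 7 of the fatty acid genes both 30% arrays lay below all 6 others, against 11.3% of all probe sets. In all, 32 of the 40 lists had no called member, and their medians ranged from -0.64 to 0.64.

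**Figure D4:**
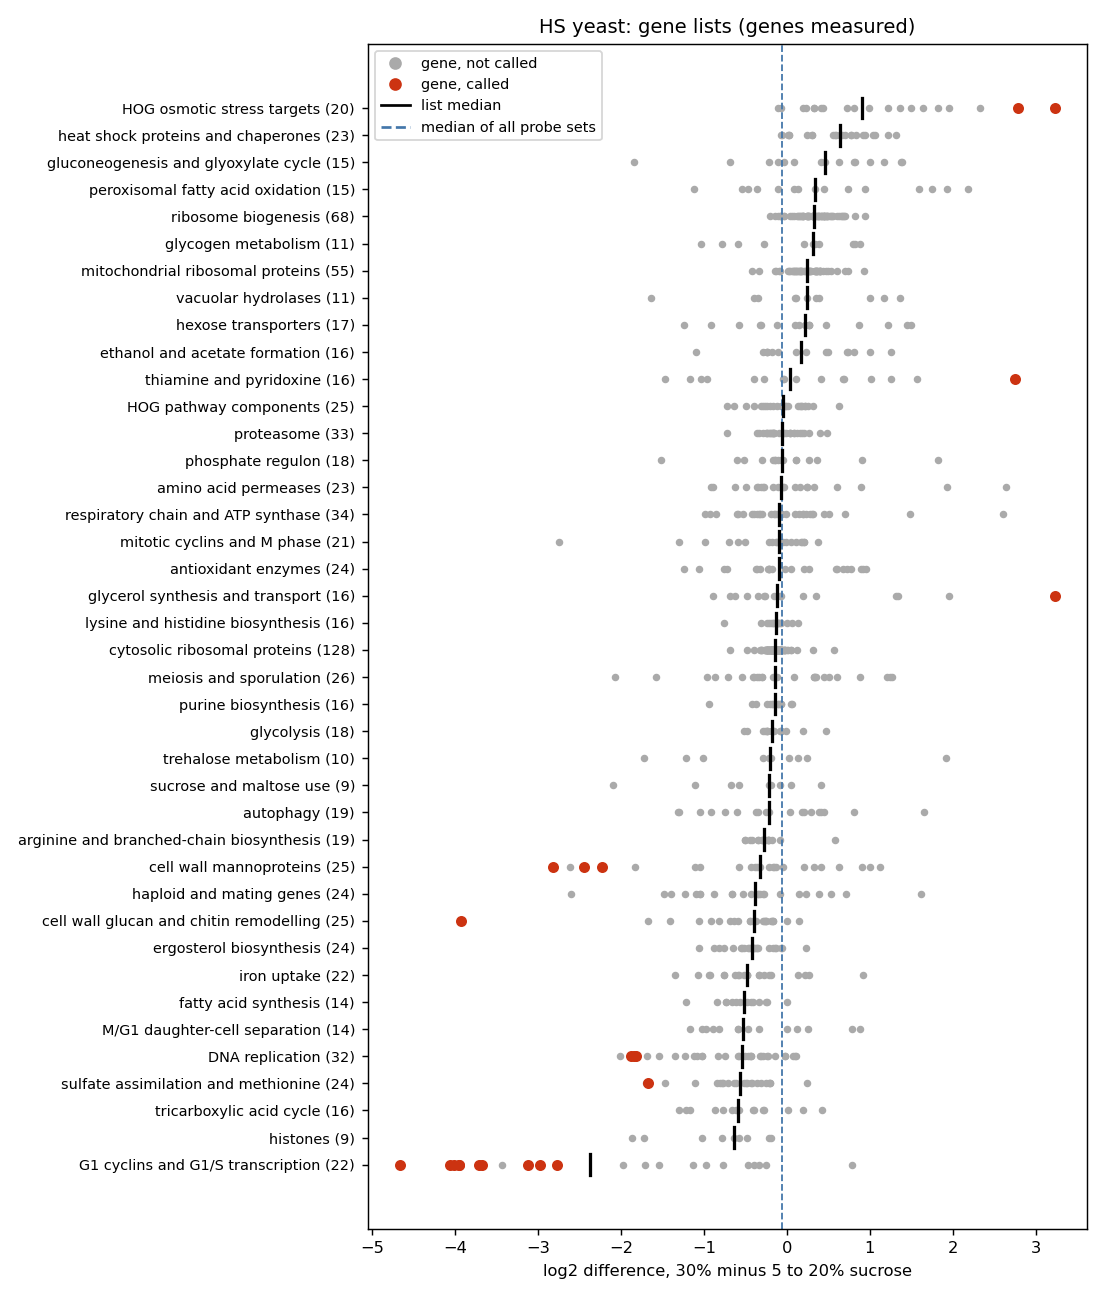
The log2 difference between 30% and 5 to 20% sucrose (horizontal axis) for each measured gene of 40 lists (vertical axis, number measured in parentheses), with called genes in red, list medians as black bars and the median of all probe sets as a dashed line. The G1 list lies furthest left with a median of -2.37 and 10 red points, and the HOG targets furthest right with a median of 0.90 and 2.

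**Figure D5:**
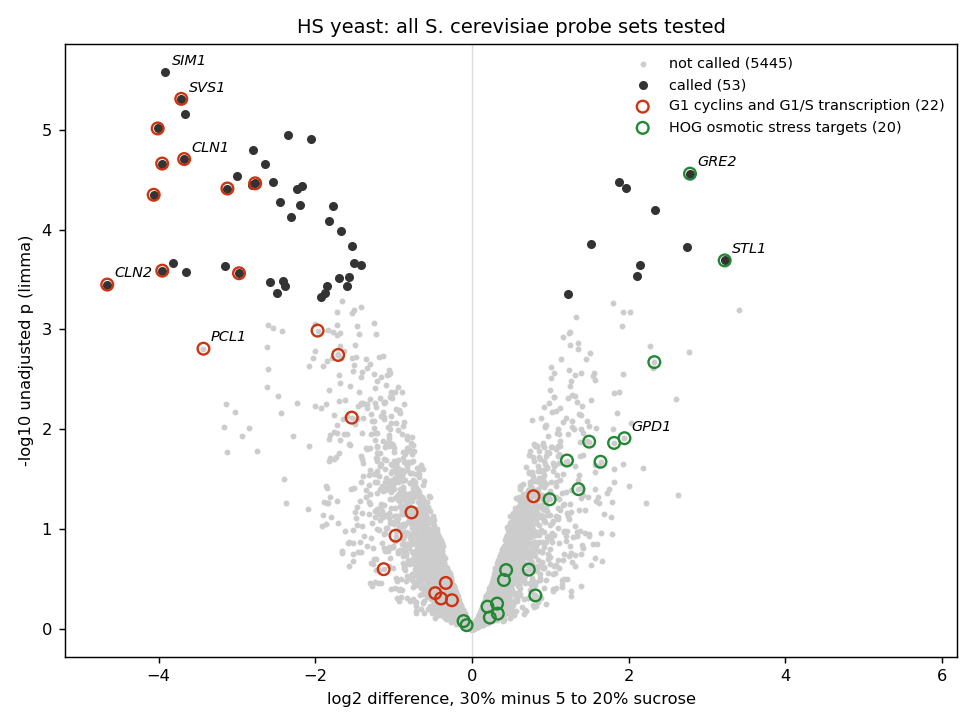
The log2 difference between 30% and 5 to 20% sucrose (horizontal axis) against -log10 of the unadjusted limma p (vertical axis) for 5498 S. cerevisiae probe sets, with called ones in black. Red rings mark the 22 G1 genes and green rings the 20 HOG targets, of which 10 and 2 were called.

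Against 20% alone, the nearest lower concentration, 0 probe sets were called by limma (0%), with a smallest adjusted p of 0.12 and 267 at an unadjusted p under 0.05. This comparison shares its arrays with the one above and has 2 arrays a group. All 53 genes called above differed in the same direction here, by 34.0% to 114% (median 86.6%) of their log2 difference from 5 to 20%. CLN2 was at -4.33 ± 1.12, TOS6 at -4.16 ± 0.76, SIM1 at -3.42 ± 0.54, STL1 at 3.57 ± 0.73 and GRE2 at 2.29 ± 0.50. With the replicate number as a block, 11 were called. Between 20% and the mean of 5 and 10%, 0 were called by limma (0%) and 82 had an unadjusted p under 0.05. CLN2 differed there by -0.49 ± 0.97 and STL1 by -0.51 ± 0.63, while TIS11 differed by -1.68 ± 0.35 and NRM1 by -1.48. From 20% to 30% TIS11 differed by -0.58 and NRM1 by -1.99.

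From 30% to 40% sucrose 20 probe sets were called (0.364%), 9 higher and 11 lower, and 867 had an unadjusted p under 0.05. The 30% arrays are the same as above, so an extreme value there enters both comparisons. STL1 went on from 0.153 and 0.795 to 11.3 and 4.78, a rise of 4.39 ± 0.73 (adjusted p = 0.032), and RPH1 rose by a further 2.18 ± 0.33 to 3.90 and 4.03. GAL10, which had fallen at 30%, rose by 2.06 ± 0.34 to 0.938 and 1.06. GRE2 had ratios of 4.62 and 3.41 at 40% but was not called (adjusted p = 0.096).

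The largest rises besides STL1 were of RNP1, a ribonucleoprotein, and HBN1, of the nitroreductase family, both by 3.64. The largest falls were of YOR008C-A (4.72 ± 0.50, from 0.758 and 0.439 to 0.0230 and 0.021, adjusted p = 0.0045), of RNR1 (3.77 ± 0.58, to 0.208 and 0.112) and of YCR102C (3.69 ± 0.40). RNR1 thus passed the test in this step and not in the earlier one. CLN2 had ratios of 0.0211 and 0.0988 at 40% and of 0.403 and 0.111 at 0% sucrose, so its 30% arrays lay between those of 5 to 20% and those of 40%. With the block 52 were called, with all 28 arrays 0 by limma (165 at an unadjusted p under 0.05), and without the first 30% array 1.

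Whether the change at 30% differed between the yeasts was tested as the HS difference minus the LS difference over all 28 arrays. By limma 0 probe sets were called (0%) and 118 had an unadjusted p under 0.05. Of the LS arrays, 6 had S. pombe medians of 1.51 to 13.7 and a wide spread, among them the second array at each of 5, 10, 20 and 30%. Without these 6 arrays, 6 probe sets were called, with each LS concentration of this comparison down to a lone array that is assumed to vary like the other groups. Leaving out in turn each of the 16 arrays at 5 to 30% gave 0 calls, except 1 without the second LS array at 5% and 7 without the first at 30%. Among those called on 22 arrays was GAL10, lower at 30% in HS, with a difference of -3.63. Its LS ratios were 0.515 to 5.36 at 5 to 20% and 4.97 and 11.8 at 30%. RNR1, also among them, had a difference of 5.06 on 22 arrays. Its LS ratios were 0.548 to 9.81 at 5 to 20% and 0.0571 and 0.290 at 30%. The ratios of both genes include the second LS arrays, which did not enter the differences on 22 arrays.

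YLR345W (-4.90), YDL241W (3.86), MF(ALPHA)1, the alpha-factor pheromone gene (4.37), and DIP5, a dicarboxylic amino acid permease gene (5.6), were the others. Of the 53 probe sets called within HS, 1 (GAL10) was among these 6. The leading genes gave no call of a difference on either set of arrays. On 22 arrays STL1 differed by 0.07 ± 0.98 (adjusted p = 0.98) and CLN2 by -2.01 ± 1.53 (adjusted p = 0.65). STL1 stood higher at 30% in LS too, at 6.18 and 16.4 against 0.335 to 2.11 at 5 to 20%. The standard errors of these differences were wider than those of the HS response, so smaller differences between the yeasts were not detectable.

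The arrays at 20% were also compared with those at 5 and 10% by overlap. Of the 43 genes that fell in HS at 30%, both HS arrays at 20% lay below all 4 at 5 and 10% in 12, against 7.11% of all probe sets. The same held for both LS arrays at 20% in 16 of the 43, against 4.51%. Of the 10 genes that rose, both 20% arrays lay above all 4 lower ones in 6 in HS, against 5.71% of all probe sets, and in 4 in LS, against 7%. The HS counts share arrays with the comparison that chose these genes, and the difference between the yeasts at 20% was not tested.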

How the data were processed

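Poly(A) RNA of 28 samples was measured on arrays holding probe sets for both yeasts. The deposited values are ratios on a linear scale, which the authors made with GeneSpring 7.0 by scaling each chip on its positive genes, S. pombe excluded, and then each gene, per the series' design text. How probes were summarised is not stated in any source used here. Of 10928 probe sets, 7244 had 1 symbol in the platform annotation, 1 had several and 3683 had none, and 12 symbols were updated through RefSeq. The 5498 S. cerevisiae probe sets were tested, and 97.7% of them had a median over the arrays within 0.006 of 1. The lowest value, 0.01, was kept as it stood (188 values).

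The log2 ratios were fitted with limma 3.58.1 (R 4.3.3) as group means over the 14 HS arrays (7 residual and 3.95 prior degrees of freedom), or over 28 for the difference between the yeasts. P-values are two-sided and Benjamini-Hochberg adjusted over all 5498 probe sets, and n is 2 arrays a concentration. The script was tested on simulated data. Deviations of same-numbered arrays from their group means correlated across probe sets at r = 0.188 to 0.427 between the compared groups (lowest over all HS groups -0.021). The replicate number was therefore tried as a block in alternative fits, but the main fits held no block. No slide or scan record was used here, so no other batch could be set.

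Named genes were the 12 largest rises and falls among called, non-overlapping probe sets (10 rises in all), up to 4 called members of a list with 2 or more, a fixed set (GPD1, GPP1, GPP2, STL1, FPS1, HOG1, TPS1, HSP12, CTT1, GRE2, SUC2, HXT1, HXT5, CLN2 and PCL1), and the 3 largest rises and falls of the other comparisons. Other genes were named after their values were seen. The comparison, the lists and the fixed set were chosen with earlier results of these data known. A description of promoter motifs was planned and not run, because no promoter sequences were used here. Alternatives tried were other array sets, median centring, quantile normalization, an offset of 0.216, a variance trend, the replicate block, 2 pooled groups, other baselines, a required fold, other probe set filters and leaving out each array.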

Additional observations from a re-analysis of the deposited data

Results flagged for a closer look

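The 40 named genes of the main comparison were also examined within the 6 HS arrays at 5 to 20% sucrose. The check looked for a highest or lowest array that stood apart (beyond Dixon's critical value for 6 values). It did not cover the other genes described with their values. In 3 of the 40 genes one array stood apart. MNE1 had its highest ratio, 1.09, on the first 20% array. SUC2 had its lowest ratio, 0.112, on the same array, and TIR4 had its highest, 14.1, on the first 5% array. Chance gives about 1 such array in 20 groups, and these 6 arrays pool 3 concentrations, so a difference between concentrations can also set one apart. Without the first 20% array MNE1 differed by 1.3 on the log2 scale and was not called (adjusted p = 0.076), and without the first 5% array TIR4 differed by -2.05 and was called (adjusted p = 0.036).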

How the results depend on the processing

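The count of 53 probe sets called between 30% and 5 to 20% sucrose came out within 1.5 times in 8 of 24 alternatives. It became 157 with quantile normalization, 120 with the 8 compared arrays as 2 pooled groups and 102 with the replicate block. It became 30 without 5% in the baseline, 29 without 10%, 21 with the S. pombe probe sets in the adjustment, 1 with all 28 arrays, and 0 with all probe sets of the table (406 at an unadjusted p under 0.05) or with a fold of at least 2 required (91). Leaving out 1 array gave 0 to 39. The quantile and block counts held all 53. All 53 kept their direction in all 24 alternatives, each passed in 6 to 21 of them, and 15 passed in at least 7 of the 8 fits with 1 array left out. Over 40 named genes and 24 alternatives, 683 of 960 values kept direction and side of the threshold, 262 lost the call, 4 (all PCL1) gained it, and 11 uncalled values of GPP1, SUC2, FPS1 and TPS1 lay on the other side of 0. The 10 called G1 genes became 1 with all 28 arrays, and 0 without the second 30% array, with the required fold and with all probe sets. Between 20% and 30%, 0 calls became 16 with quantile normalization, 15 with the offset, 11 with the replicate block, 1 with the HS arrays of 5 to 30% alone (an alternative chosen after seeing the data) and 0 to 9 with 1 array left out. Between 20% and 5 and 10%, 0 calls became 1 with the replicate block and 0 to 1 with 1 array left out. Between 30% and 40%, 20 calls became 142 with quantile normalization, 52 with the replicate block, 43 with the arrays of 5 to 40% alone, 31 with the offset, 0 with all 28 arrays and 1 to 22 with 1 array left out. For the difference between the yeasts, 0 calls became 6 on 22 arrays and 0 to 7 with 1 array left out, and stayed at 0 with the replicate block (151 at an unadjusted p under 0.05). The cause of these changes was not tested. Precision is limited by there being 2 arrays at 30%.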

Other observations

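In LS yeast the ratios of some genes that changed in HS at 30% already stood apart at 20% sucrose, and those of others did not. CLN2 had LS ratios of 7.26 and 10.4 at 5%, 2.89 and 20.2 at 10%, 0.201 and 0.887 at 20%, and 0.258 and 0.0722 at 30%. Both LS arrays at 20% thus lay below all 4 at 5 and 10%, whereas the HS arrays at 20% stood at 13.0 and 7.81. SVS1, the wall protein, had 3.68, 3.14, 2.41 and 4.47 on the LS arrays at 5 and 10%, then 0.549 and 0.581 at 20%. On the HS arrays at 20% it stood at 5.72 and 4.23. SIM1 overlapped, with LS ratios of 0.179 to 21.4 at 5 and 10% and of 2.97 and 0.996 at 20%.

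GRE2, the methylglyoxal reductase, had LS ratios of 0.110 to 0.585 at 5 and 10%, 0.755 and 2.86 at 20%, and 4.76 and 11.7 at 30%. Its HS ratios were 0.133 and 0.285 at 20%. STL1 overlapped, with LS ratios of 0.335 to 1.25 at 5 and 10% and of 0.809 and 2.11 at 20%. These genes were picked after their values were seen, the second LS array at each of these concentrations is one of the 6 with high S. pombe medians, and the difference between the yeasts at 20% was not tested.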
